A study of Danio rerio with 8 samples.

Results

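The cytosolic ribosomal protein genes of the zebrafish embryo were followed across 8 expression arrays at 6 hours post fertilization (hpf). They were the probe sets with exactly 1 platform gene symbol of the form rpl, rplp or rps followed by a digit, without the ribosomal protein kinases (rps6k) and rps19bp1, which encode no ribosomal protein. This gave 76 probe sets for 72 genes, of 8793 genes with a symbol on the array, and each gene was represented by its probe set with the highest mean. By symbol alone, 45 of the 72 genes were assigned to the large subunit (rpl or rplp) and 27 to the small subunit (rps). Whether each symbol, rpl7l1 among them, names a protein of the finished ribosome was not checked. The symbols of all 72 were still current by Entrez number, and all 72 lay above the array background (log2 5.10) on all 8 arrays.

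Embryos at the 1-cell or 2-cell stage had received 3 nl of a 0.3 mM morpholino, an antisense oligonucleotide that blocks its target RNA. The morpholino was directed against prmt6, the gene of protein arginine methyltransferase 6, or was the control morpholino named prmt6 cMO. Embryos given the prmt6 morpholino were collected at 6 hpf in 3 subtypes, as the labels name them, which gave 3 severe arrays, 1 mild array and 1 normal array, beside 3 control arrays. The strain and the number of embryos per array are not given in the sources used here, and the titles call the severe and control arrays biological replicates without naming clutches. The p-values below rest on the spread between arrays of this kind, which may in part be technical, and the small number of arrays limits their precision. RNA came from whole embryos, so fewer cells of a type and less RNA per cell cannot be told apart. The prmt6 mRNA itself read log2 11.30, 11.10 and 11.41 on the severe arrays, 11.13 on the mild array, 11.22 on the normal array and 9.67, 9.87 and 9.56 on the controls. It was thus higher in all 5 arrays given the prmt6 morpholino (severe minus control 1.57, SE 0.14, limma adjusted p = 0.000115), and whether that morpholino blocks translation or splicing is not given in the sources used here, so this level does not measure the knockdown.

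A ribosome holds mostly single copies of many small proteins around its RNA, and cells make the proteins of both subunits in matched amounts. The egg stores ribosomes and ribosomal protein mRNAs, and the zygotic genome takes over their supply during the blastula stages. In vertebrates these mRNAs begin with a stretch of pyrimidines, the TOP motif, through which growth signals control their translation as a group. In zebrafish, loss of a copy of several ribosomal protein genes predisposes adults to tumours, and loss of both copies is lethal to the larva.

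The ribosomal protein genes moved up and down together from array to array. Relative to the mean of the 3 controls, the median member lay at -0.85, -0.56 and -0.16 on the log2 scale on severe arrays 1, 2 and 3. It lay at 0.07 on the mild array, at 0.42 on the normal array, and at -0.15, -0.22 and 0.37 on control arrays 1, 2 and 3. The lowest arrays were thus severe 1 and severe 2, at 0.556 and 0.677 times the control level, while severe 3 lay among controls 1 and 2, and the normal array and control 3 were highest. The mean of the array medians was -0.52 ± 0.34 (SD, n = 3) in severe embryos and 0.00 ± 0.32 (SD, n = 3) in controls, so the groups overlapped.

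Both subunits followed the same course. The large subunit median lay at -0.82, -0.54 and -0.16 on the severe arrays, 0.06 on the mild array, 0.41 on the normal array and -0.15, -0.21 and 0.37 on the controls. The small subunit median lay at -0.89, -0.63 and -0.06 on the severe arrays, 0.10 on the mild array, 0.46 on the normal array and -0.16, -0.22 and 0.39 on the controls. The medians of the 2 subunits differed by at most 0.11 on any array. Small minus large, the difference was -0.07, -0.09 and 0.11 on severe arrays 1, 2 and 3. It was 0.04 on the mild array, 0.05 on the normal array and -0.01, -0.01 and 0.02 on the controls, and it was not tested. A pattern common to all members held 80.6% of the variance of the 72 genes over the 8 arrays.

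**Figure D1:**
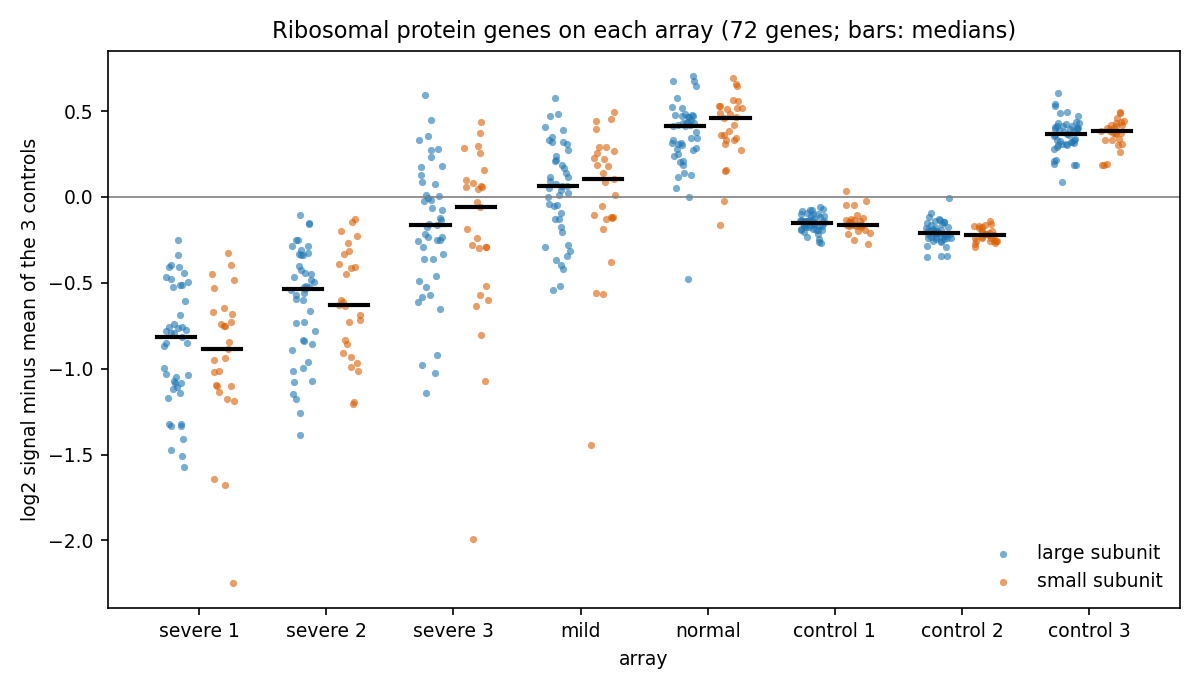
Each point is a ribosomal protein gene on an array, as its log2 signal minus that gene's mean over the 3 controls, for the large subunit (blue, 45 genes) and the small subunit (orange, 27 genes), with bars at the medians. All 72 genes lie below 0 on severe 1 and severe 2, while severe 3 and the mild array straddle 0.

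Part of the order of the arrays held gene by gene. On severe 1 and severe 2 all 72 genes lay below their control mean, and for 67 of 72 both of these arrays lay below all 3 controls, against 28.6% of all probe sets tested. Severe 3 was higher than both severe 1 and severe 2 for 70 genes, while 41.2% and 42.2% of all probe sets were higher than on each of these arrays. It was higher than control 1 for 35 genes (51.6% of all probe sets), control 2 for 37 (50.7%) and control 3 for 6 (56.1%). Control 3 was above controls 1 and 2 for all 72 genes (42.7% and 42.2%), by medians of 0.52 and 0.60. Array 3 thus stood above the other replicates in both groups for these members, but not for most probe sets.

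The normal array was above all 3 controls for 42 genes, against 29.0% of all probe sets tested, and the mild array was above all 3 severe arrays for 65 genes, against 25.1%. The mild array lay above control 1 for 56 genes (48.9% of all probe sets) and above control 3 for 9 (55.1%). The mean signal of 18 hybridisation control probe sets, RNA added in fixed amounts, was log2 10.83, 10.98 and 11.39 on the severe arrays, 11.23 on the mild array, 11.13 on the normal array and 10.77, 10.69 and 10.89 on the controls. Its 3 highest values were on severe 3, mild and normal, and its part in the order of the arrays was not tested. The difference between 3' and 5' probe sets of gapdh, a sign of RNA integrity, ranged from -0.59 to 0.23 on the severe arrays. It was 0.47 on the mild array, 0.58 on the normal array and between -0.48 and 1.08 on the controls. The same difference for acta1 ranged from 0.14 to 1.21 on the severe arrays and was -0.52 on the mild array, 1.44 on the normal array and between -1.87 and 0.79 on the controls. The groups overlapped in both measures, control 3 was lowest for acta1, and their part in the results was not tested.

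In severe against control embryos 30 of 72 ribosomal protein genes fell and 0 rose (limma, Benjamini-Hochberg adjusted p under 0.05 over 9301 probe sets). Of all probe sets tested, 17.6% fell and 21.0% rose. The median member differed by -0.48 (1.40-fold lower), while the median of all probe sets tested was 0.11. The fall took in 19 of 45 large subunit genes (median -0.48) and 11 of 27 small subunit genes (median -0.49). At an unadjusted p under 0.05 in limma, 38 genes were lower and 0 higher. The share of all probe sets at that threshold is not given, here or below, so such counts only describe the members. Severe means lay below the control mean for 71 of 72 members, while the median difference of all probe sets was above 0. The 30 genes ranged from -0.47 for rpl39 to -1.81 for rps27l, and for all 30 the 3 severe arrays lay below the 3 controls, as they did for 4 members that did not pass and for 23.4% of all probe sets tested.

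The number of genes that fell rested on single arrays. It was 16 without severe 1, 16 without severe 2, 52 without severe 3 and 16 without control 3. Without control 1 it was 25, and without control 2 it was 29. Of all 9301 probe sets 1399, 1380, 1788, 1338, 1318 and 1316 fell in the same order, against 1636 with all arrays. Across 17 alternative settings the number of members that fell lay between 15 and 65 with 0 higher in each, and their median lay between -0.77 and -0.33. Scaled on the hybridisation controls, 65 members fell, while of all probe sets 1903 fell and 474 rose, against 1636 and 1951 as deposited.

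**Figure D2:**
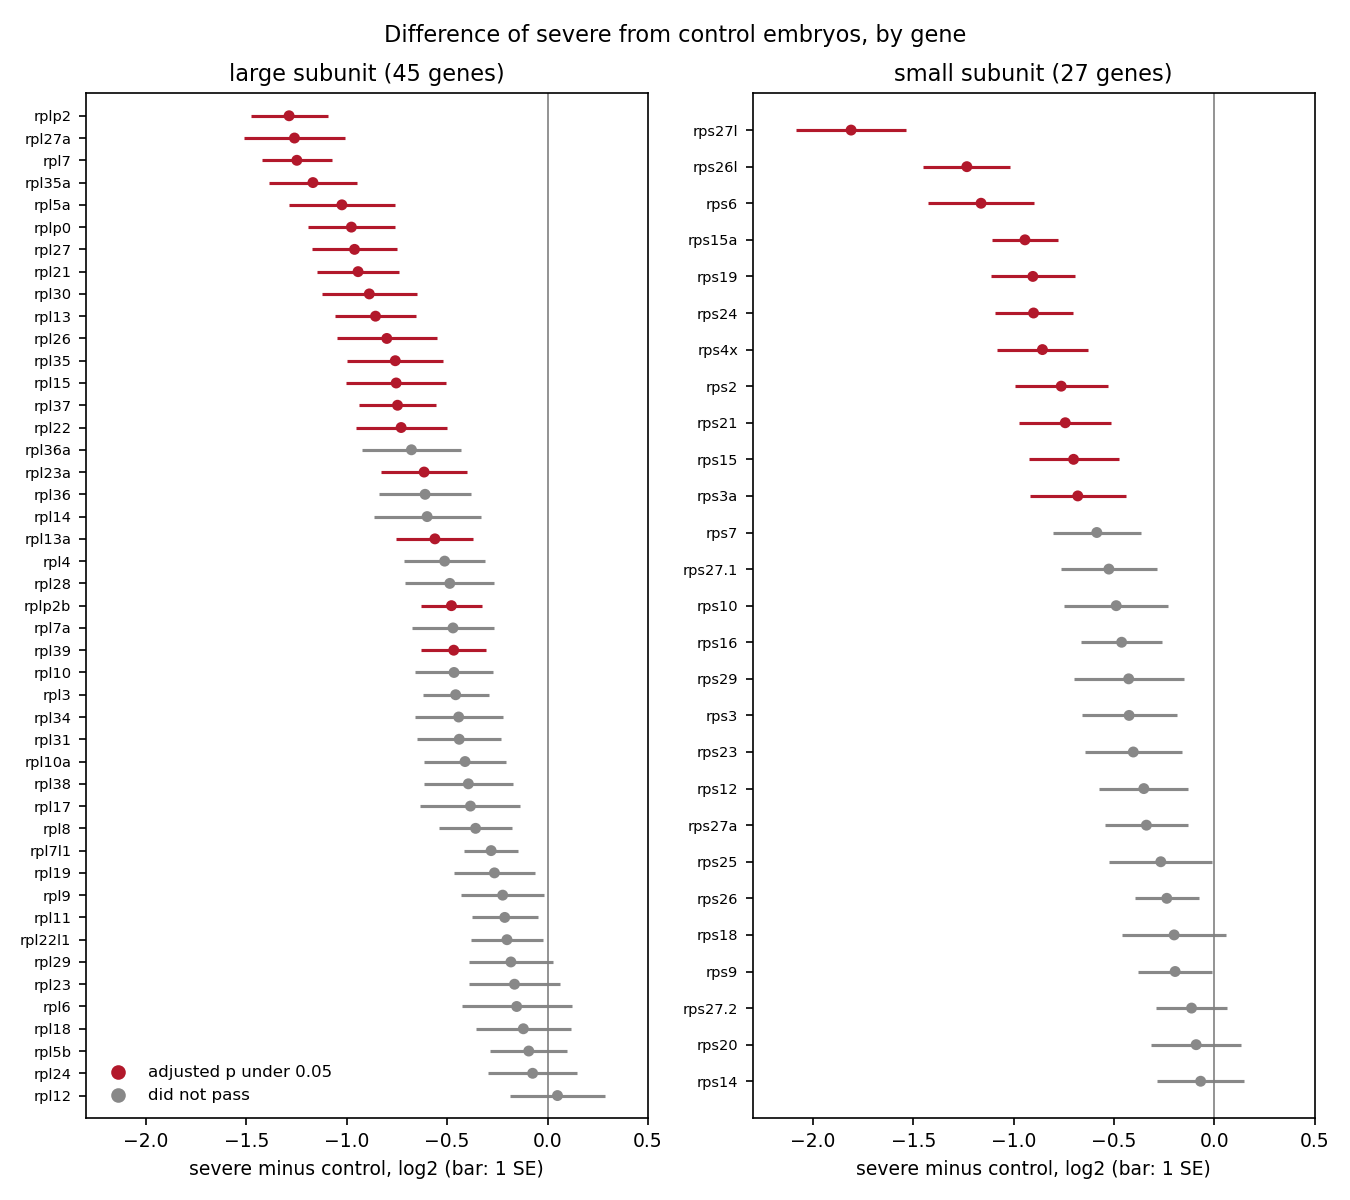
Fitted difference of severe from control embryos on the log2 scale for each gene, with bars of 1 SE, for the large subunit (left) and the small subunit (right). Red marks the 19 large and 11 small subunit genes past the adjusted threshold; the order runs from rps27l at -1.81 to rpl12 at 0.05.

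The P stalk of the large subunit recruits elongation factors to the ribosome. Its acidic component rplp2 read log2 9.24, 9.66 and 9.67 on the severe arrays, 10.46 on the mild array, 11.23 on the normal array and 10.67, 10.59 and 11.17 on the controls. The severe arrays lay below every other array, and the gene fell 2.44-fold (log2 -1.29, SE 0.19, limma adjusted p = 0.00107). Its anchor rplp0 read 11.90, 12.23 and 12.62 on the severe arrays, 12.94 on the mild array, 13.44 on the normal array and 13.05, 13.01 and 13.62 on the controls. It fell 1.97-fold (limma adjusted p = 0.00721), with no overlap of severe and control arrays. By contrast rpl12, which binds at the base of the stalk, read 13.51, 13.74 and 14.44 on the severe arrays, 14.42 on the mild array, 14.29 on the normal array and 13.73, 13.65 and 14.16 on the controls. Its groups overlapped, and its difference of 0.05 did not pass (SE 0.24, limma adjusted p = 0.89).

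Among the other large subunit genes, rpl7 had the smallest p. It read 11.20, 11.45 and 11.73 on the severe arrays, 12.17 on the mild array, 12.76 on the normal array and 12.55, 12.56 and 13.01 on the controls. The highest severe value lay below the lowest control, and the gene fell 2.38-fold (log2 -1.25, SE 0.18, limma adjusted p = 0.000804). Also among the 5 smallest p-values of the large subunit were those of rpl27a (log2 -1.26), rpl35a (-1.17) and rpl21 (-0.94). For rpl27a the severe arrays lay between 10.80 and 11.36 and the controls between 11.93 and 12.88. A second probe set of rpl21 read 6.01, 6.09 and 5.77 on the severe arrays and 5.17, 4.84 and 5.25 on the controls. It went the other way and passed (0.87, SE 0.27, limma adjusted p = 0.0299). Its control values lay around the array background of 5.10, so the size of that difference is uncertain. The mean of both probe sets did not pass (-0.03, limma adjusted p = 0.90), but it holds this probe set.

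Of the 5S particle, in which the proteins of rpl5 and rpl11 hold the 5S RNA and, when free, bind the p53 regulator Mdm2 in mammals, 1 of 3 genes passed. For rpl5a the values were 9.54, 9.68 and 10.29 on the severe arrays, 10.34 on the mild array, 10.86 on the normal array and 10.67, 10.52 and 11.40 on the controls. All severe values lay below the controls and the gene fell 2.03-fold (limma adjusted p = 0.0143), a call lost without severe 1 or without severe 2 (limma adjusted p = 0.0545 and 0.0544). Its duplicate rpl5b read 12.70, 12.95 and 13.38 on the severe arrays, 13.49 on the mild array, 13.54 on the normal array and 12.98, 12.95 and 13.38 on the controls. Those groups overlapped, as did those of rpl11, and neither passed (-0.09 and -0.21, limma adjusted p = 0.73 and 0.334). Scaled on the hybridisation controls, both fell, by 0.38 and 0.50 (limma adjusted p = 0.0271 and 0.00358).

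Of the small subunit, rps27l fell most, 3.51-fold (log2 -1.81, SE 0.27, limma adjusted p = 0.00116). It encodes a variant of Rps27, and in human cells the gene is induced by p53. Its values were 7.39, 8.44 and 7.65 on the severe arrays, 8.20 on the mild array, 9.47 on the normal array and 9.67, 9.42 and 9.82 on the controls. Unlike the median member, it was lower on severe 3 than on severe 2, and severe and control arrays did not overlap. The phosphoprotein gene rps6, whose product is the target of S6 kinase in growth signalling, read 10.40, 10.87 and 11.48 on the severe arrays, 11.70 on the mild array, 12.41 on the normal array and 11.91, 11.88 and 12.45 on the controls. It fell 2.24-fold (log2 -1.16, SE 0.26, limma adjusted p = 0.0081), with no overlap.

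The remaining leading falls of the small subunit were rps26l (2.35-fold), rps15a (1.92-fold) and rps24 (1.87-fold). Their limma adjusted p-values were 0.00234, 0.00239 and 0.00652. For rps15a the severe arrays lay between 11.28 and 11.49 and the controls between 12.01 and 12.64, and the mild array, at 11.73, lay between the groups. At the other end rps14 read 13.30, 13.63 and 14.13 on the severe arrays, 14.19 on the mild array, 14.21 on the normal array and 13.63, 13.57 and 14.06 on the controls. It differed by -0.07 with overlapping groups (limma adjusted p = 0.827), as rps20 did by -0.09 (limma adjusted p = 0.775). Scaled on the hybridisation controls, rps14, rps20 and rpl5b did fall, by 0.35, 0.37 and 0.38 (limma adjusted p = 0.0373, 0.0354 and 0.0271). The gene rps27a, which encodes a fusion of ubiquitin with the ribosomal protein, differed by -0.34 without passing (limma adjusted p = 0.231). With that scaling rps27a fell by 0.62 (limma adjusted p = 0.0043).

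Several ribosomal protein genes come in paralogous forms, and in 7 comparisons of such forms 1 gene was lowered more than its partner on every severe array. A difference taken within an array is not touched by a scaling factor of that array. The difference rpl5a minus rpl5b differed by -0.93 between severe and control embryos, with an SD of 0.09 over severe arrays and 0.23 over control arrays (n = 3 each). The gene rps26l read 10.11, 10.76 and 10.68 on the severe arrays, 11.19 on the mild array, 12.06 on the normal array and 11.62, 11.49 and 12.13 on the controls, with no overlap of severe and control arrays. Its partner rps26 read 11.80, 12.18 and 12.30 on the severe arrays, 12.41 on the mild array, 12.79 on the normal array and 12.31, 12.17 and 12.51 on the controls, and there the groups overlapped. For rplp2 against rplp2b the within-array difference changed by -0.81, for rps26l against rps26 by -0.996, and for rps27l against rps27.1 and rps27.2 by -1.28 and -1.70. For rpl7 against the related rpl7l1 it changed by -0.97, and for rpl22 against rpl22l1, a related form, by -0.53. In all 7 the 3 severe arrays lay below the 3 controls, though rps27l enters both comparisons with rps27 genes. Which gene of a pair came first was chosen with earlier results known, so the shared direction is not a finding. How often other pairs of genes show no overlap is not given. For rpl22 minus rpl22l1 the groups almost met, at 0.741 on severe 2 and 0.746 on control 2. Each comparison gave p = 0.1 in an exact two-sided permutation test, also adjusted over the 7, which is the smallest p that 3 against 3 arrays allow.

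The partner genes had differences in severe embryos of -0.48 for rplp2b (limma adjusted p = 0.0357), -0.24 for rps26, -0.53 for rps27.1, -0.11 for rps27.2, -0.28 for rpl7l1 and -0.20 for rpl22l1. Of these 6, rplp2b alone passed. Scaled on the hybridisation controls, rps26, rps27.1 and rpl7l1 also fell, by 0.52, 0.81 and 0.56 (limma adjusted p = 0.0131, 0.00338 and 0.0141). Under that scaling rps27.2 and rpl22l1 still did not pass (limma adjusted p = 0.0801 each). The other probe sets of rps27.1 did pass, at -0.65 and -0.64 (limma adjusted p = 0.0164 and 0.0376), as did a second probe set of rpl3, at -0.66 (limma adjusted p = 0.0111), against -0.46 for the rpl3 probe set used here (limma adjusted p = 0.0537). On the mild array the same within-array differences departed from control by -0.91 for rpl5a minus rpl5b, -0.65 for rps26l minus rps26 and -1.58 for rps27l minus rps27.1, but -0.03 for rplp2 minus rplp2b. On the normal array these 4 were -0.44, -0.16, -0.68 and 0.30. The remaining differences did not share a direction. On the mild array they were -1.71 for rps27l minus rps27.2, -0.26 for rpl7 minus rpl7l1 and 0.21 for rpl22 minus rpl22l1, and on the normal array -0.72, 0.53 and 0.12. The fall of rpl22 itself, by 0.73 (limma adjusted p = 0.0316), lost its call without severe 1, severe 2 or control 3, with median centring and without a variance trend (limma adjusted p = 0.0660 to 0.106). Cross-hybridisation between paralogues on the array was not tested.

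**Figure D3:**
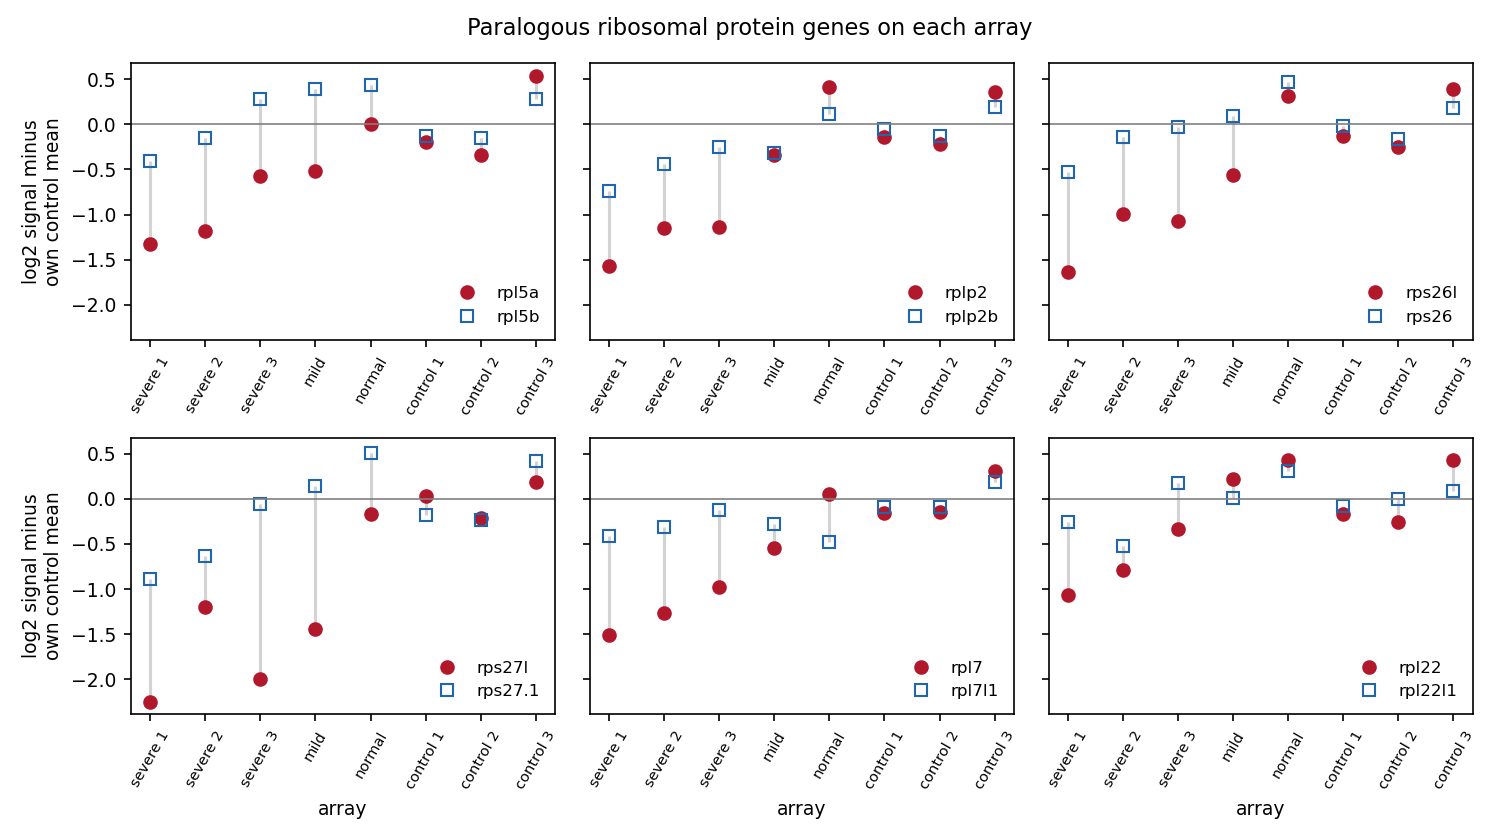
Log2 signal of paralogous genes on each array, each minus its own mean over the 3 controls, with grey lines joining the 2 genes of an array. On all 3 severe arrays the red gene (rpl5a, rplp2, rps26l, rps27l, rpl7 and rpl22) lies below its blue partner. Which gene of a pair is red was chosen with earlier results known.

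To find members that left the shared course, each array was centred on its median member and the fit repeated over all 9301 probe sets, so that 0 means a change equal to that of the array medians (the median departure over members was 0.11). On this scale 2 genes, rps27l (-1.22, SE 0.44) and rpl7 (-0.66, SE 0.23), were past the adjusted threshold below the shared course. Above it were 4 genes, rpl12 (0.64, SE 0.16), rps14 (0.52, SE 0.16), rps20 (0.50, SE 0.18) and rpl5b (0.50, SE 0.19). These counts stand against 5.40% and 25.6% of all probe sets on the same scale, which centring on a falling group lifts as a whole. Adjusted over so many shifted probe sets, the threshold is lenient for the members. On simulated arrays it also passed members that had been given no departure, so single departures are given as values and not as findings. Leaving out any 1 array of the severe or control group left between 1 and 3 departing members. In those fits between 331 and 484 of all 9301 probe sets fell on the centred scale, and between 923 and 4566 rose.

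Over all 8 arrays the typical member strayed little from the shared course, with a root mean square departure of 0.15 (median over members), from 0.0421 to 0.707. Only 8 members exceeded 0.3, in descending order rps27l, rpl7l1, rplp2, rps26l, rpl27a, rpl7, rpl35a and rps6. Of these, rpl7l1, a member by its symbol alone, stood out on the normal array. There it read 11.49 against 11.87, 11.87 and 12.15 on the controls, while 68 of 72 members lay above their control mean.

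How far a member lay below control moved with its brightness. Across the 72 genes, which share arrays and are not replicates, the Spearman correlation of mean signal with the severe minus control difference was 0.63. It was -0.05 across the other 9229 probe sets tested. The 2 values cover unlike ranges, since member means ran from 8.76 to 13.99 and the other probe sets began at the filter of 5.585. They therefore do not show that the relation is particular to the members. Among the 24 dimmest members 16 fell (median -0.88), among the 24 in the middle 12 fell (median -0.50), and among the 24 brightest 2 fell (median -0.24). Of all probe sets tested, of any brightness, 17.6% fell, and the 2 of 24 brightest members lay below that share. The share among other probe sets as bright as the members is not given. Brightness is a property of the probe set as much as of the mRNA, and its part in the departures and in the paralogue differences was not tested.

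**Figure D4:**
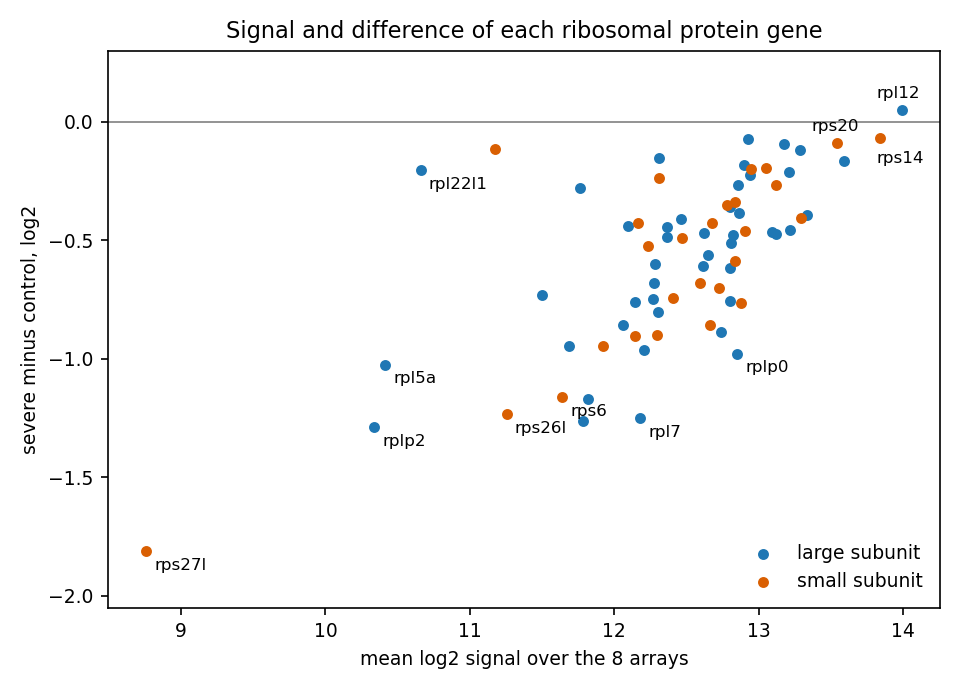
Mean log2 signal over the 8 arrays against the severe minus control difference on the log2 scale, with 1 point per gene and colours for the subunits. Dim members such as rps27l and rplp2 lie lowest, and the bright members rpl12, rps14 and rps20 lie near 0. Other members go against this, among them the dim rpl22l1 (-0.20) and rps27.2 (-0.11) and the brighter rplp0 (-0.98).

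In mild against control embryos 1 of 72 members passed. This was rps27l, which fell by 1.44 on the log2 scale (limma adjusted p = 0.0404), and 0 rose. Of all probe sets tested, 8.78% fell and 4.69% rose in that comparison. The median member differed by 0.07, close to the median of all probe sets at 0.03, and members ranged from -1.44 to 0.58. At an unadjusted p under 0.05 in limma, 2 members were lower and 0 higher. The single mild array was assumed to vary like the replicated groups.

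In normal against control embryos 0 of 72 members passed in either direction (limma). At an unadjusted p under 0.05, 1 was lower and 1 higher, and of all probe sets 0.0430% fell and 0 rose. The median member differed by 0.42, and the median of all probe sets by -0.03. Without array 3 of both groups, chosen after the data were seen, 44 members rose on the normal array (4.18% of all probe sets) and 0 fell, and on the mild array 21 rose (14.3%) and 2 fell (18.3%). On the normal array 7.58% of all probe sets then fell. In severe against control 53 members then fell (20.5%) and 0 rose (27.7%). The arrays left out, severe 3 and control 3, stood above their own replicates for 70 and 72 members, so this choice itself lowers the error of the test. Without control 3 alone, 0 members passed in either direction on the normal or the mild array (limma). The severe, mild and normal comparisons share their control arrays.

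Ribosomal proteins whose symbols lie outside the rule gave 4 tested genes, of which 2 fell in severe embryos and 0 rose. The small subunit gene faua, which encodes a ubiquitin-like fusion protein, averaged 10.24 ± 0.34 in severe embryos and 11.68 ± 0.51 in controls (SD, n = 3 each) and fell by 1.44 (limma adjusted p = 0.00268). Its duplicate faub differed by 0.31 without passing (limma adjusted p = 0.0590), and rpsa fell by 0.79 (limma adjusted p = 0.0100). Of 18 tested mRNAs that carry the TOP motif in mammals but encode no ribosomal protein, 4 fell and 2 rose, with a median of -0.12. The lower share was close to the 17.6% of all probe sets, and 21.0% of all probe sets rose. The initiation factor genes eif3f and eif4bb fell by 1.21 and by 0.62 on the log2 scale (limma adjusted p = 0.00340 and 0.00790), and eif3ha rose by 0.71 (limma adjusted p = 0.0165).

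Of 39 nucleolar and assembly factors, which build ribosomes, 16 fell in severe embryos, 2 rose (eif6 and wdr43) and 21 did not pass, with a median of -0.37, against 17.6% lower and 21.0% higher among all probe sets. The rRNA methyltransferase gene nop2 fell (log2 -3.03, limma adjusted p = 5.86e-05), as did the nucleolar GTPase gene gnl3 (-2.14, limma adjusted p = 9.39e-05) and rrp15 (-2.11, limma adjusted p = 0.000153). Their array medians were -0.39, -0.32 and -0.38 on the severe arrays, -0.29 on the mild array, -0.09 on the normal array and -0.04, -0.02 and 0.05 on the controls. They were thus about as low on severe 3 as on severe 1, and 11 of 39 fell and 1 rose on the mild array (8.78% and 4.69% of all probe sets), where the cytosolic ribosomal proteins had a median above 0. Mitochondrial ribosomal proteins, which serve a separate ribosome, had 12 of 58 genes lower and 12 higher and a median of 0.03, shares close to those of all probe sets (17.6% and 21.0%). Among them mrpl54 and mrpl4 fell (log2 -1.38 and -1.97), and mrps18a rose (0.98), with limma adjusted p-values of 0.000556, 0.000598 and 0.00102.

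**Figure D5:**
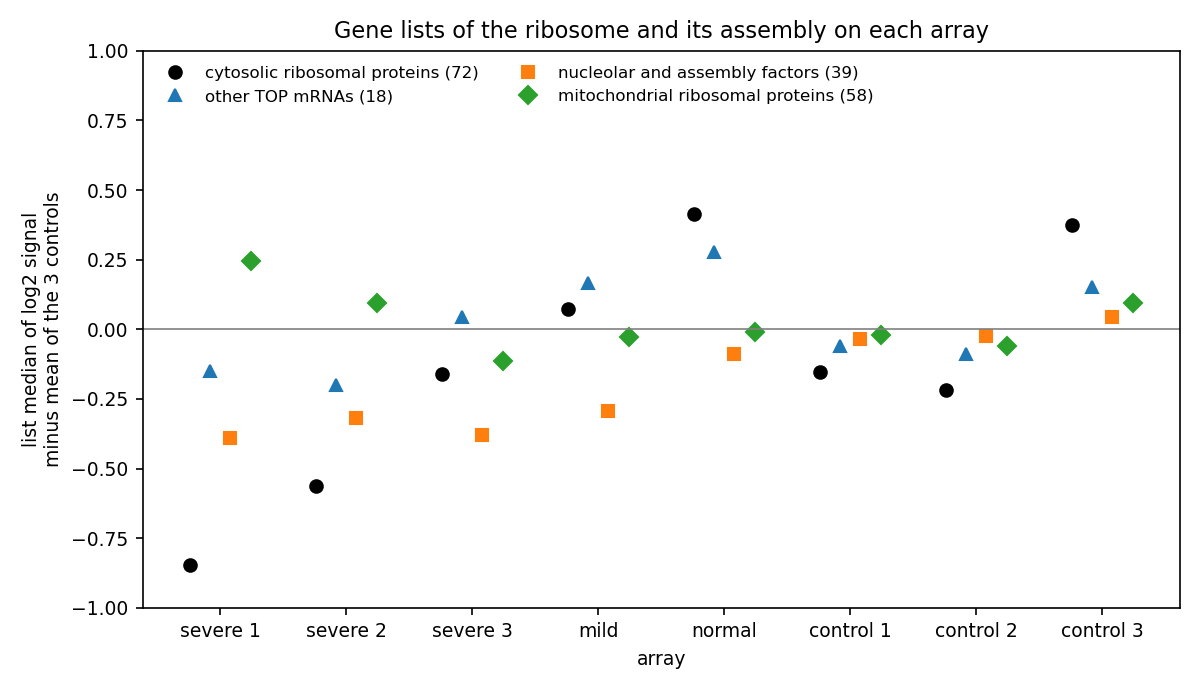
Median log2 signal of 4 gene lists on each array, minus each gene's mean over the 3 controls, with the number of genes in brackets. The cytosolic ribosomal proteins range from -0.85 on severe 1 to 0.42 on the normal array, while the nucleolar and assembly factors lie between -0.39 and -0.29 on the 3 severe arrays and the mild array.

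Markers of other cell types moved with the same comparison, in which 17.6% of all probe sets fell and 21.0% rose. Of 14 enveloping layer markers 12 fell in severe embryos and 0 rose, while cdh1 and cldne did not pass. The summed signal of the 14 was log2 13.50 to 14.13 on the severe arrays and 15.596 to 16.003 on the controls. It was 14.15 on the mild array and 15.63 on the normal array. Such a sum of linear signals weighs the brightest markers most. Of 4 yolk syncytial layer markers 3 fell, and mxtx2 rose by 1.71 (limma adjusted p = 0.000708). Their sums were 10.38 to 11.36 on the severe arrays and 12.33 to 13.20 on the controls. They were 11.40 on the mild array and 12.56 on the normal array. Of 10 maternal or germ cell transcripts 8 rose, ddx4 fell by 0.64 (limma adjusted p = 0.0209) and tdrd7a did not pass. Their sums were 14.94 to 15.22 on the severe arrays and 13.78 to 14.06 on the controls. They were 14.82 on the mild array and 14.18 on the normal array. No marker was at 0 on any array, and the part of these shifts in the ribosomal protein values was not tested.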

How the data were processed

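The members, gene lists and tests were chosen with earlier results of these data known. The deposited table held log2 values, 1 per probe set and array, made by the authors with MAS5 per the submitters' processing notes (version not given in the sources used here). Every array in it had the same mean linear signal of 500 after trimming 2% at each end. Symbols came from the platform annotation. Group means were fitted with limma 3.58.1 in R 4.3.3 (lmFit, eBayes with trend, 4 residual degrees of freedom) over the 9301 of 15502 probe sets with a mean at or above the 40th percentile (log2 5.585), leaving out 115 controls, and p-values were adjusted over all 9301. All 72 members passed that filter. Background was the 95th percentile of 17 Tag probe sets.

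Named genes were up to 5 per subunit and direction with the smallest p, members departing after centring, members with fixed roles or paralogues, members whose probe sets disagreed, and 3 per other list. On simulated data the fit found most large changes and missed most small ones, and the centred fit also passed members given no departure. Numbers that pair arrays were checked by the correlation of deviations from group means. Figures used matplotlib 3.10.9. No sequence is shown because no sequence table was used here.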

Additional observations from a re-analysis of the deposited data

Results flagged for a closer look

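Severe and normal embryos, which received the same morpholino, were compared directly. Severe against normal embryos, a comparison added after the data were seen, gave 29 of 72 ribosomal protein genes lower and 0 higher (limma, adjusted p under 0.05), against 10.4% of all probe sets lower and 11.3% higher. The median member was 1.85-fold lower (log2 -0.89), while the median of all probe sets was 0.11. Of the 72 members 71 were lower, and the exception was rpl7l1 (0.20), a member by its symbol alone. The normal subtype has 1 array, which was assumed to vary like the replicated groups, so this difference has no replicate check on the normal side. Severe against mild embryos gave 0 of 72 in limma, with 0 calls among all probe sets. The median member differed by -0.60 there, and the median of all probe sets by 0.09.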

How the results depend on the processing

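The count of 30 falling genes became 15 with median centring, 65 with scaling on hybridisation controls, 18 without a variance trend, 53 with replicates 1 and 2 only, and 16 to 52 with 1 array left out. Of all 9301 probe sets, 1475, 1903, 1545, 1911 and between 1316 and 1788 fell in severe embryos in these settings, in the same order, against 1636. Hybridisation scaling moved the median of all probe sets to -0.17 in severe, -0.42 in mild and -0.37 in normal embryos, and median centring moved it to 0.24 in mild embryos. In mild embryos 967 probe sets then fell and 30 rose with hybridisation scaling, and 575 and 718 with median centring, against 817 and 436. The medians of all, large and small subunit members in severe embryos moved by less than 1 SD of the replicates in all 17 alternatives. For mild embryos the count of 1 became 0 with quantile normalization, median centring or no variance trend, 7 with hybridisation scaling, 23 with replicates 1 and 2 only, and 0 to 1 with 1 array left out. The count of 0 for normal embryos became 44 with replicates 1 and 2 only. Hybridisation scaling moved the mild median to -0.37 and the normal median to 0.0751. The 6 departing members became 12 with quantile normalization, 2 without a filter, 1 without a variance trend, 10 with the mean over probe sets, 22 with replicates 1 and 2 only, and 1 to 3 with 1 array left out. On the centred scale 502 of all probe sets fell and 2382 rose in the main fit. These became 846 and 3047 with quantile normalization, and 748 and 5082 with replicates 1 and 2 only. They were 493 and 1708 without a variance trend, 509 and 1832 of 15502 without a filter, and 462 and 2373 of 8100 with the mean over probe sets. With 1 array left out, between 331 and 484 fell and between 923 and 4566 rose. The causes were not tested.

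With replicate numbers as a block, 53 members fell and 32 departed, 15 below the shared course and 17 above it. In that fit 1885 of 9301 probe sets fell, and on the centred scale 890 fell and 5652 rose. Same-numbered arrays correlated at 0.34, -0.07 and 0.34 in their deviations from the group means over 9301 probe sets. Severe 1 correlated more with control 2 (0.38), while severe 3 correlated positively with control 3 alone. The numbers were not taken as pairs, but this check cannot decide the matter, since 3 deviations from their own mean are tied to each other. Array 3 was the highest of its group for 70 members in severe and 72 in control embryos. Differences near 0 changed sign without passing. These were rpl5b (0.0553) and rps20 (0.0132) under quantile normalization, and rpl12 under hybridisation scaling (-0.23) and with replicates 1 and 2 only (-0.0664). With 1 array left out, rpl12 ranged from -0.22 to 0.24, rpl5b from -0.28 to 0.0625, rps14 from -0.29 to 0.12 and rps20 from -0.35 to 0.0608. Of 425 values of 25 named genes under alternatives, 378 kept direction and side of the threshold, 8 lost a call, 25 gained one and 14 changed sign.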
